A study of Mus musculus with 14 samples.

Results

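This report describes 10 genes of T cells and natural killer (NK) cells in bone marrow that is rich in marrow adipocytes: *Cd3d*, *Cd3e*, *Cd3g*, *Cd4*, *Cd8a*, *Cd8b1*, *Tcf7*, *Bcl11b*, *Il2rb* and *Nkg7*. The genes were taken by symbol from a list set with earlier results of these data known, and 10 of 10 were found among the 23441 genes of the deposited matrix and the 55401 genes of the per-sample count files. The study removed *Pnpla2*, which encodes adipose triglyceride lipase (ATGL), the first lipase of triglyceride breakdown, from bone marrow adipocytes, and asked how the marrow responds when food is limited. RNA was sequenced from 14 samples of marrow plugs from the distal tibia, each a pool of 2 male mice of 24 weeks on a C57BL6/SJL background. Control mice (BMAd-Pnpla2+/+) were fed ad libitum (AL, n = 4) or kept on 30% caloric restriction (CR) for 6 weeks (n = 4), and mice lacking the gene in marrow adipocytes (BMAd-Pnpla2-/-) were fed AL (n = 3) or kept on CR (n = 3). The CR mice were housed singly and received their food once a day, near 6 pm.

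All 4 groups, controls included, carried FLPo recombinase driven by *Osterix* together with a Cre that FLPo turns on and that sits behind an internal ribosome entry site at the 3′ end of the *Adipoq* gene. The groups therefore shared these alleles, and a lower adiponectin level that comes with them, and differed by the floxed *Pnpla2* allele. Per the study's methods the Cre line came from 1 founder. Among its limitations the study lists relatively low Cre expression and rarer recombination in young animals. It also reports that the share of recombined adipocytes grew with age and with the number of Cre alleles. Some stromal or dendritic cells were marked besides adipocytes. Levels are given as CPM, that is counts scaled to a common library total, with the TMM correction for composition. The labelled marrow held the RNA of many cell types: summed markers of neutrophils ranged from 7577 to 22671 CPM over all samples, those of erythroid cells from 8565 to 43551, those of adipocytes from 217 to 2559, and the 10 T and NK cell genes together from 220 to 406. In whole marrow, fewer cells of a type and less RNA per cell cannot be told apart.

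T cells recognise antigen through a receptor whose 2 variable chains sit on the membrane with the CD3 chains, which carry the signal inward. CD4 and CD8 are coreceptors that bind MHC class II and class I molecules, so that they divide helper from cytotoxic T cells, and marrow is known as a place where memory T cells, CD8 cells among them, reside. TCF1 (from *Tcf7*) and BCL11B are transcription factors of T lineage commitment and maintenance, and TCF1 also marks naive and memory T cells. NK cells, which develop in marrow, lack CD3 and respond to IL-15 through the receptor chain CD122 (from *Il2rb*), and NKG7 is a protein of cytotoxic granules. Several of these genes are not restricted to T cells: *Cd4* is also expressed by macrophages and dendritic cells, *Tcf7* and *Bcl11b* by innate lymphoid cells, and *Nkg7* by NK cells and other granule-bearing cells.

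The genes lie at separate places in the mm10 genome except for 2 clusters. On chromosome 9 stand *Cd3g* (44969572 to 44980431, minus strand), *Cd3d* (44981786 to 44987339, plus strand) and *Cd3e* (44998740 to 45009627, minus strand), so that *Cd3g* and *Cd3d* are transcribed away from each other. On chromosome 6 stand *Cd8b1* (71322788 to 71337494) and *Cd8a* (71373427 to 71379173), both on the plus strand, and further along *Cd4* (124864692 to 124888221, minus strand). The others are *Nkg7* (chromosome 7, 43437073 to 43438249), *Tcf7* (chromosome 11, 52252371 to 52283014), *Bcl11b* (chromosome 12, 107910403 to 108003602) and *Il2rb* (chromosome 15, 78479256 to 78495271). The promoters of the CD3 cluster are shown because these 3 neighbours encode parts of the same complex but varied differently between samples, and that of *Nkg7* because it was the one member that was lower under CR.

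The stretches come from RefSeq (GRCm38.p6, the assembly of mm10), run 5′ to 3′ on the gene's strand, and hold those of the 250 bases before the start that lie outside annotated exons. They are chr9:44980432-44980681 (minus) for *Cd3g*, chr9:44981536-44981785 (plus) for *Cd3d*, chr9:45009628-45009861 (minus) for *Cd3e* and chr7:43436888-43437072 (plus) for *Nkg7*. Capitals mark matches to 5 motifs: TGTGGT for RUNX factors, CTTTGA for the TCF/LEF family, CAGGAAG for the ETS family, CAGGTG for the E-box, along with AGATAA for GATA factors, each searched on both strands, so that CACCTG (E-box), TCAAAG (TCF/LEF) or ACCACA (RUNX) are matches on the other strand.
Cd3g: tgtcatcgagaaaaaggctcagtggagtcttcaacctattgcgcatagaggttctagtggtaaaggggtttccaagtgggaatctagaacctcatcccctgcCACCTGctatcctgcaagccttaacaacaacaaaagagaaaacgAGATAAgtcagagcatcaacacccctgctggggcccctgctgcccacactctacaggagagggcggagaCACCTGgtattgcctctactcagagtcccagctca
Cd3d: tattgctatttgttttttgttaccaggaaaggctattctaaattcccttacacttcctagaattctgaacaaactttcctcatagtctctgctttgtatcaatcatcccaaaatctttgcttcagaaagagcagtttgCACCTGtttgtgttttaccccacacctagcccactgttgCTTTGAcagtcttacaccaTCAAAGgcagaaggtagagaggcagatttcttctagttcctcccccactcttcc
Cd3e: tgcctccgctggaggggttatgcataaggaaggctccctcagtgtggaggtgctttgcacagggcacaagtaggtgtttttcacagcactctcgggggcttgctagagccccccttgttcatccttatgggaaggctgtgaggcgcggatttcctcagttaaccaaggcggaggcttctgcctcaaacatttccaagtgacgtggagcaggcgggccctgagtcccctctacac
Nkg7: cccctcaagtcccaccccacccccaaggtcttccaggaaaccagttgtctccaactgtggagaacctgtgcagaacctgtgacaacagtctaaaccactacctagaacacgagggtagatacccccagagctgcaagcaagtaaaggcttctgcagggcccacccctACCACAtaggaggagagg
*Cd3g* held 2 E-box matches, at 148 to 143 and 35 to 30 bases before its start, and a GATA match. *Cd3d* held an E-box match and 2 TCF/LEF matches, at 73 to 68 and 54 to 49 bases before its start, the letters that TCF1, the product of *Tcf7*, recognises. *Nkg7* held a RUNX match within the printed stretch and an ETS match nearer to the start, and *Cd3e* an ETS match at 17 to 11 bases before its start, which begins on the last printed base and is not in capitals. Such matches are common and are given as a description of the letters: of the same 250-base windows of 32817 promoters, 17.2% held the E-box, 13.8% the TCF/LEF, 14% the RUNX, 10.8% the ETS and 9.99% the GATA motif. A promoter entry was at hand for 7 of the 10 genes.

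The libraries held 18898324 to 21665553 gene counts, and all 10 genes passed the filter on low counts, with no fewer than 59 counts in any sample. Libraries of 11 samples kept the strand of the RNA (4.30% to 4.62% of gene counts on the first strand), whereas the 3 BMAd-Pnpla2-/- CR libraries did not (50.1% to 50.5%), so all values below were counted without strand. Any comparison with that group also compares these libraries, and the group and the library type cannot be told apart. Counts of *Pnpla2*, the targeted gene, were 174 to 301 CPM in BMAd-Pnpla2+/+ AL, 131 to 170 in BMAd-Pnpla2-/- AL, 502 to 1015 in BMAd-Pnpla2+/+ CR and 177 to 267 in BMAd-Pnpla2-/- CR samples. *Pnpla2* was lower in BMAd-Pnpla2-/- than in BMAd-Pnpla2+/+ mice under CR (log2 fold change −1.90, SE 0.26, adjusted p = 0.0386, and up to 0.220 with 1 sample left out, here BMAd-Pnpla2-/- CR replicate 1) and its difference in mice fed AL was −0.57 (adjusted p = 0.9996).

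To ask which of the genes responded to food restriction, CR was compared with AL in each genotype. In BMAd-Pnpla2+/+ mice 7 of the 10 genes rose and 1 fell, against a background of 15.1% of all 17671 tested genes higher and 10.9% lower. Both CD8 chains, *Tcf7*, *Bcl11b*, *Cd3e*, *Cd3g* and *Il2rb* rose, *Nkg7* fell, and *Cd4* and *Cd3d* did not pass the test. In BMAd-Pnpla2-/- mice *Cd8b1*, *Cd8a* and *Cd3e* rose and *Nkg7* fell, against a background of 6.04% higher and 5.57% lower (1067 and 985 genes, and 1396 and 687 when scaled by total counts or 913 and 1267 by DESeq2 size factors). The median log2 fold change of the 10 genes was 0.99 in control mice and 0.40 in BMAd-Pnpla2-/- mice, beside 0.00 and 0.05 over all genes tested. Averaged over the genotypes, 7 rose and 1 fell, beside 19.6% and 15.1% of all genes.

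**Figure D1:**
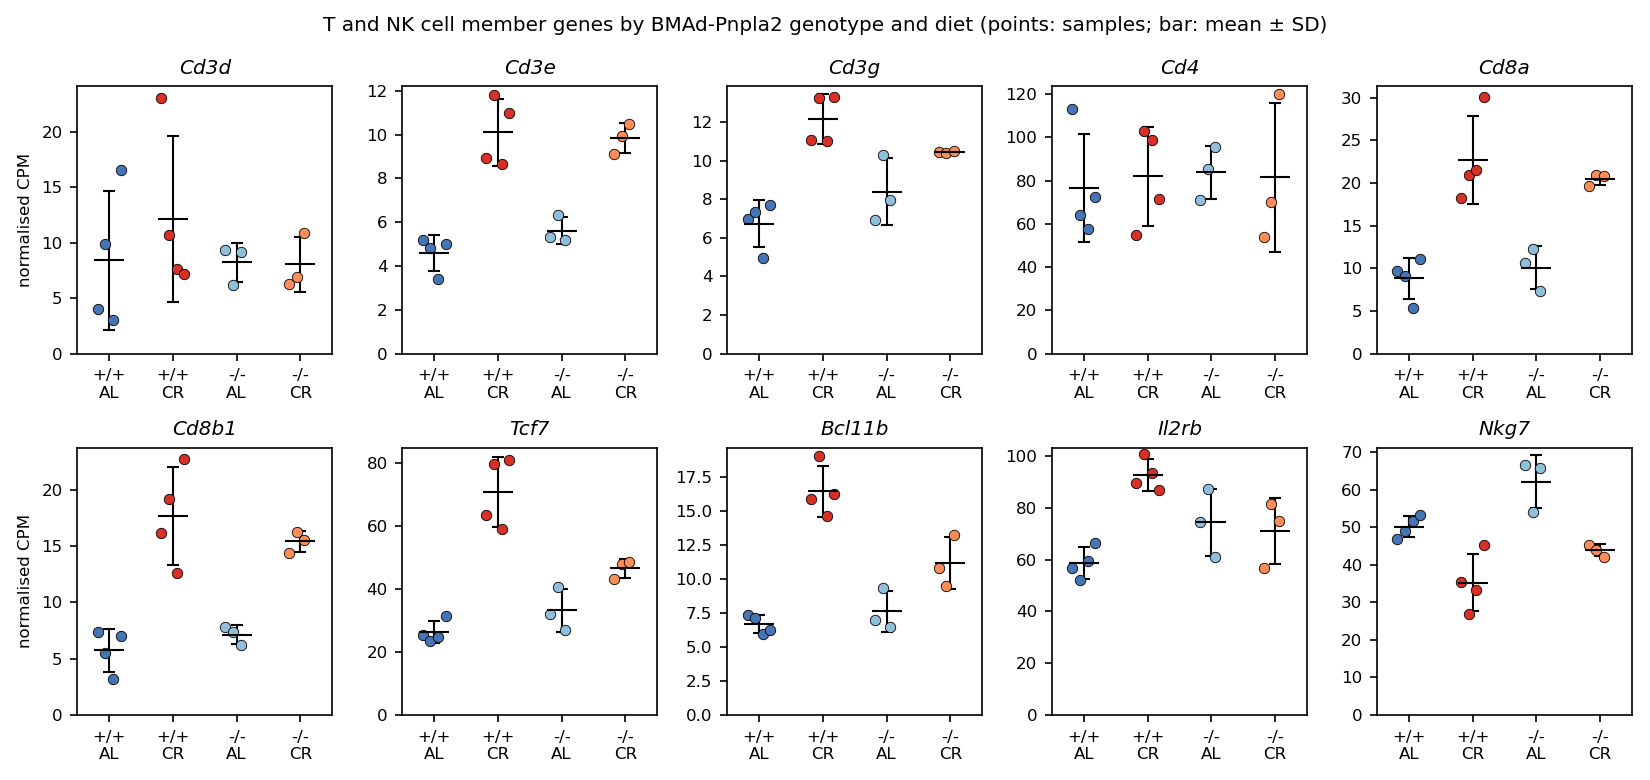
Normalised CPM (y axis, linear and starting at 0 in each panel) of the 10 genes in every sample (points) of the 4 groups of BMAd-Pnpla2 genotype and diet (x axis), with the mean and SD as bars. The CR samples of both CD8 chains and of Cd3e lie above all AL samples in both genotypes, the points of Cd4 and Cd3d overlap, and Nkg7 is lower under CR.

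The CD3 chains differed in how closely samples of a group agreed. *Cd3e*, which encodes the epsilon chain, stood at 5.17, 4.80, 3.4 and 5.02 CPM in the BMAd-Pnpla2+/+ AL samples and at 8.95, 11.8, 8.67 and 11 CPM in the CR samples. The BMAd-Pnpla2-/- samples stood at 5.33, 6.32 and 5.18 CPM under AL and 9.12, 9.94 and 10.5 CPM under CR. All 7 CR samples were above all 7 AL samples. *Cd3e* thus rose by 1.13 on the log2 scale (SE 0.16, adjusted p = 0.00118) in control mice and by 0.81 (SE 0.18, adjusted p = 0.0172) in BMAd-Pnpla2-/- mice.

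*Cd3g*, which encodes the gamma chain, stood at 6.95, 7.33, 4.94 and 7.73 CPM in BMAd-Pnpla2+/+ AL and 11.1, 13.3, 11 and 13.3 CPM in CR samples, which did not overlap. The BMAd-Pnpla2-/- samples were at 6.91, 10.3 and 7.99 CPM under AL and 10.4, 10.4 and 10.5 CPM under CR, so that the highest AL sample lay just under the CR samples. The log2 fold change of *Cd3g* was 0.85 (SE 0.16, adjusted p = 0.00405) in the first and 0.31 (95% interval −0.08 to 0.71, adjusted p = 0.279) in the second. *Cd3d*, which encodes the delta chain, ranged most widely: 4.01, 9.92, 3.04 and 16.6 CPM in BMAd-Pnpla2+/+ AL and 23.1, 10.7, 7.61 and 7.18 CPM in CR samples. The BMAd-Pnpla2-/- samples of *Cd3d* stood at 9.35, 6.21 and 9.15 CPM under AL and 6.27, 6.94 and 10.9 CPM under CR. The groups of *Cd3d* overlapped in both genotypes, and its intervals of −0.53 to 1.59 and −1.27 to 1.21 hold both no change and changes of the size seen for the other chains.

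Both chains of CD8 rose in both genotypes, and *Cd4* gave no call. *Cd8a*, which encodes the alpha chain, stood at 9.70, 9.07, 5.35 and 11.1 CPM in BMAd-Pnpla2+/+ AL and 18.2, 21.0, 21.6 and 30.1 CPM in CR samples. The BMAd-Pnpla2-/- samples of *Cd8a* stood at 10.7, 12.3 and 7.30 CPM under AL and 19.7, 20.9 and 20.8 CPM under CR. The groups were apart in both, with log2 fold changes of 1.37 (SE 0.22, adjusted p = 0.00208) and 1.02 (SE 0.25, adjusted p = 0.0229).

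*Cd8b1*, which encodes the beta chain and unlike the alpha chain is largely restricted to T cells, stood at 7.39, 5.49, 3.19 and 7.02 CPM in BMAd-Pnpla2+/+ AL and 16.2, 19.2, 12.6 and 22.8 CPM in CR samples. For *Cd8b1* the BMAd-Pnpla2-/- samples stood at 7.83, 7.37 and 6.19 CPM under AL and 14.4, 16.3 and 15.6 CPM under CR. Its groups were likewise apart, and it had the highest fold change of the 10 genes in both genotypes: 3.06-fold (log2 1.61, SE 0.23, adjusted p = 0.00135) and 2.16-fold (log2 1.11, SE 0.27, adjusted p = 0.0206). *Cd4* stood at 113, 63.9, 57.8 and 72.2 CPM in BMAd-Pnpla2+/+ AL and 55.0, 103, 98.6 and 71.3 CPM in CR samples. For *Cd4* the BMAd-Pnpla2-/- samples stood at 70.9, 85.3 and 95.4 CPM under AL and 53.9, 70.3 and 120 CPM under CR. The *Cd4* groups overlapped throughout, with a log2 fold change of 0.10 (95% interval −0.49 to 0.69) in the first and −0.04 (−0.72 to 0.64) in the second. Summed markers of monocytes and macrophages, cells that also express *Cd4*, ranged from 2108 to 2526 CPM in BMAd-Pnpla2+/+ AL, 2179 to 2802 in BMAd-Pnpla2+/+ CR, 2004 to 2874 in BMAd-Pnpla2-/- AL and 2236 to 2937 in BMAd-Pnpla2-/- CR samples, and the part of such cells in the *Cd4* counts was not tested.

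The transcription factors *Tcf7* and *Bcl11b* rose in BMAd-Pnpla2+/+ mice, with *Tcf7* at the smallest adjusted p of the 10 genes. *Tcf7* stood at 25.5, 23.7, 24.9 and 31.6 CPM under AL and 63.7, 79.8, 59.1 and 81.1 CPM under CR in BMAd-Pnpla2+/+ samples, and at 32.1, 40.7 and 27.1 CPM under AL and 43.2, 48.2 and 48.6 CPM under CR in BMAd-Pnpla2-/- samples. CR samples were above AL samples in each genotype, and the 3 BMAd-Pnpla2-/- CR samples were below the 4 BMAd-Pnpla2+/+ CR samples. The log2 fold change of *Tcf7* was 1.42 (SE 0.14, adjusted p = 0.000178) in BMAd-Pnpla2+/+ and 0.49 (95% interval 0.13 to 0.84, adjusted p = 0.0675) in BMAd-Pnpla2-/- mice. *Bcl11b* stood at 7.34, 7.12, 5.97 and 6.26 CPM under AL and 15.9, 19.1, 14.6 and 16.3 CPM under CR in BMAd-Pnpla2+/+ samples, and at 7.01, 9.37 and 6.5 CPM under AL and 10.8, 9.52 and 13.3 CPM under CR in BMAd-Pnpla2-/- samples. Its order of groups was that of *Tcf7*. The log2 fold change of *Bcl11b* was 1.30 (SE 0.15, adjusted p = 0.000522) in the first and 0.55 (95% interval 0.18 to 0.93, adjusted p = 0.0546) in the second.

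The receptor chain of IL-2 and IL-15, which T and NK cells share, rose in BMAd-Pnpla2+/+ mice, whereas the granule gene *Nkg7* fell in both genotypes. *Il2rb* stood at 56.9, 52.0, 59.6 and 66.4 CPM in BMAd-Pnpla2+/+ AL and 89.5, 101, 93.4 and 86.9 CPM in CR samples, which were apart. For *Il2rb* the BMAd-Pnpla2-/- samples stood at 74.7, 87.3 and 61.2 CPM under AL and 56.9, 81.5 and 75.1 CPM under CR, which overlapped. The log2 fold change of *Il2rb* was 0.66 (SE 0.13, adjusted p = 0.00461) in the first and −0.06 (95% interval −0.38 to 0.25) in the second. *Nkg7* stood at 46.8, 49.1, 51.6 and 53.3 CPM in BMAd-Pnpla2+/+ AL and 35.5, 26.9, 33.2 and 45.3 CPM in CR samples, and at 66.7, 54.2 and 65.7 CPM in BMAd-Pnpla2-/- AL and 45.4, 44.0 and 42.2 CPM in CR samples. All CR samples of *Nkg7* were below the AL samples of the same genotype, and its log2 fold change was −0.51 (SE 0.13, adjusted p = 0.0146) and −0.50 (SE 0.15, adjusted p = 0.0448).

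**Figure D2:**
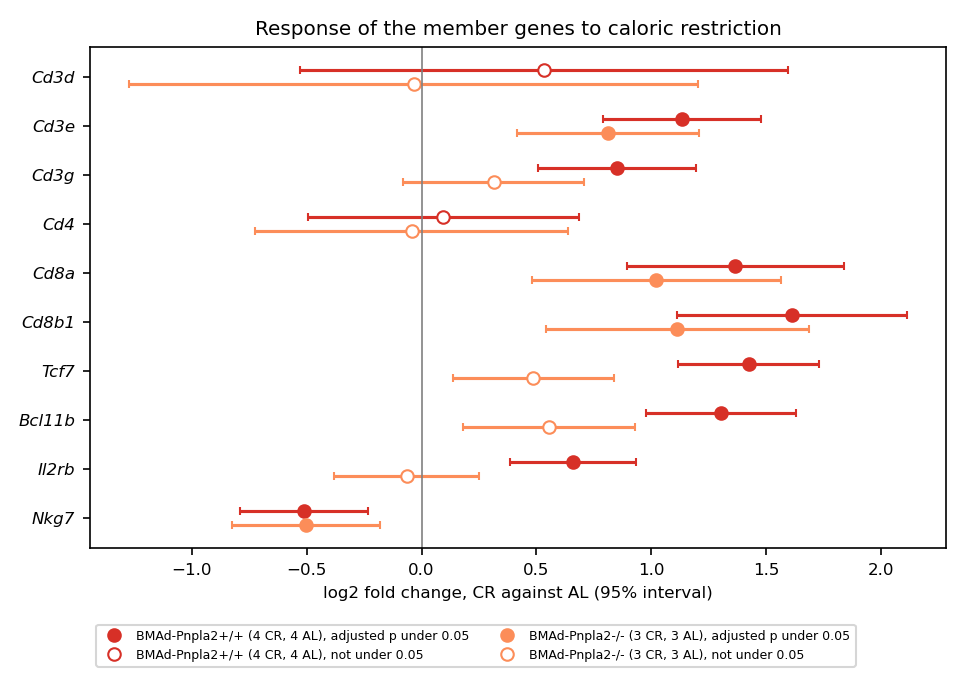
log2 fold change of CR against AL (x axis) for the 10 genes (y axis) in BMAd-Pnpla2+/+ (red) and BMAd-Pnpla2-/- mice (orange), with 95% intervals; filled points have an adjusted p under 0.05. Both CD8 chains and Cd3e are filled to the right of 0 in both genotypes, Nkg7 is filled to the left in both, and the intervals of Cd3d and Cd4 are the widest.

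The 8 calls in BMAd-Pnpla2+/+ mice stood without any single sample. In BMAd-Pnpla2-/- mice none of the 4 calls stood without AL replicate 1, AL replicate 3, CR replicate 2 or CR replicate 3: the adjusted p then rose to 0.0632, 0.0851, 0.0617 and 0.0729 for *Cd8b1*, to 0.0740, 0.0969, 0.0639 and 0.0796 for *Cd8a* and to 0.0764, 0.0745, 0.0506 and 0.0742 for *Cd3e*, with log2 fold changes between 0.72 and 1.15. For *Nkg7* the adjusted p rose to 0.117, 0.101, 0.108 and 0.145, to 0.0785 without CR replicate 1, and to between 0.0512 and 0.0569 without BMAd-Pnpla2+/+ AL replicate 1, 3 or 4, which share the estimate of spread. *Nkg7* also lost its call when scaled by total counts alone (log2 fold change −0.43, adjusted p = 0.0672). Averaged over the genotypes the call of *Il2rb* (log2 fold change 0.30, adjusted p = 0.0299) was lost without any of 8 samples (adjusted p up to 0.113). For CR in BMAd-Pnpla2-/- mice *Tcf7* and *Bcl11b* gained a call without AL replicate 2 (adjusted p = 0.0382 and 0.035), with the deposited matrix (0.0489 and 0.0310) and with total counts alone (0.0427 and 0.0390), and *Bcl11b* also with DESeq2 (0.0411) and without BMAd-Pnpla2+/+ CR replicate 2 (0.0486). Counted as groups that do not overlap, 7 genes were higher and 1 lower in BMAd-Pnpla2+/+ mice, beside 12.4% and 10.4% of all genes, and 6 were higher and 1 lower in BMAd-Pnpla2-/- mice, beside 20.5% and 17.4%.

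Ratios of counts within a sample are given as a description, because no ratio could pass after adjustment in this design. In BMAd-Pnpla2+/+ mice the log2 ratio of *Cd4* to *Cd8a* fell from 3.12 ± 0.43 (SD, n = 4) under AL to 1.83 ± 0.50 (n = 4) under CR, and in BMAd-Pnpla2-/- mice from 3.08 ± 0.54 (n = 3) to 1.91 ± 0.55 (n = 3). Samples of the 2 diets did not overlap in either genotype (exact permutation test, two-sided, p = 0.0286 and 0.1, the smallest values that 4 against 4 and 3 against 3 samples allow). The log2 ratio of *Nkg7* to *Cd3e* moved furthest, by −1.68 in control mice and −1.31 in BMAd-Pnpla2-/- mice, again without overlap. The ratio of *Cd8b1* to *Cd3e* was higher under CR by 0.51 and 0.30, that of *Il2rb* to *Cd3e* lower by −0.48 and −0.88, and that of *Cd4* to *Cd3e* lower by −1.04 and −0.93. The 2 chains of CD8 kept closer to each other, with a change of −0.26 (exact permutation p = 0.257) and −0.06 (p = 0.8) in the log2 ratio of *Cd8a* to *Cd8b1*. After adjustment over the 28 ratio tests the smallest p was 0.160, which is the lowest this design could give for 5 ratios at its floor.

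**Figure D3:**
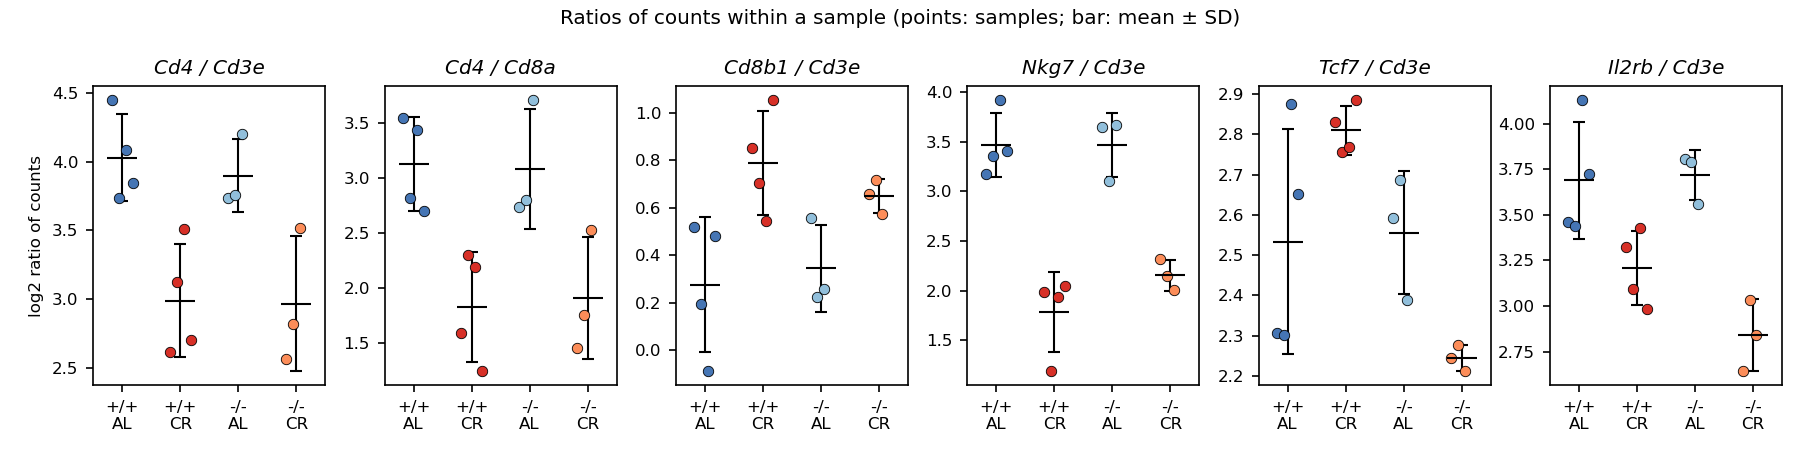
log2 ratios of counts (y axis, own range in each panel) of 6 pairs of genes in every sample (points) of the 4 groups (x axis), with mean and SD. Ratios of Cd4 and of Nkg7 to the other gene are lower in the CR samples of both genotypes, and for Tcf7 to Cd3e the 3 BMAd-Pnpla2-/- CR samples lie below all others.

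Levels of different genes can be compared per length of transcript, here as RPKM (counts divided by the kilobases of exon as well as the library total). In BMAd-Pnpla2+/+ AL marrow *Nkg7* was highest at 54.9 ± 3.12 RPKM (SD, n = 4), apart from *Cd4* (19.0 ± 6.19) and *Il2rb* (13.7 ± 1.40), which overlapped, and *Tcf7* followed at 10.1 ± 1.34. *Cd3d* (4.62 RPKM), *Cd8b1* (3.89), *Cd8a* (2.42) and *Cd3g* (2.06) overlapped neighbour with neighbour, and *Cd3e* (1.13) and *Bcl11b* (0.823) were lowest. Counting without strand lowers *Cd3e* alone among the members, since its own-strand counts were 153% of these in the stranded libraries. Its level and rank may therefore be too low. Under CR in the same genotype the range of *Tcf7* (27.0 ± 4.26 RPKM) overlapped that of *Nkg7* (38.5 ± 8.35), and *Cd8b1* had risen to 11.9 ± 2.92. In BMAd-Pnpla2-/- mice *Nkg7* was also first, at 68.0 ± 7.62 RPKM under AL and 48.0 ± 1.78 under CR (n = 3 each), and *Bcl11b* last, at 0.941 and 1.38.

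The effect of genotype was compared at each diet. In mice fed AL none of the 10 genes passed the test, as none of all genes did (0%, with 700 genes at an unadjusted p under 0.05 and 17 calls by DESeq2). *Il2rb*, *Tcf7* and *Nkg7* had log2 differences of 0.34, 0.33 and 0.31 (unadjusted p = 0.0262, 0.0466 and 0.0429, adjusted p = 0.9996 each, edgeR's quasi-likelihood test). *Nkg7* and *Cd3e* were higher in every BMAd-Pnpla2-/- than in every BMAd-Pnpla2+/+ sample, beside 2.32% of all genes. Both separations rested on the TMM scaling. As CPM of the unscaled library total, the lowest BMAd-Pnpla2-/- AL samples stood at 52.9 for *Nkg7* and 5.08 for *Cd3e*. The highest BMAd-Pnpla2+/+ AL samples lay above them, at 53.8 and 5.11.

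Under CR none of the 10 passed either, beside 0.0113% of all genes (2 of 17671, with 4095 at an unadjusted p under 0.05 and 1565 calls by DESeq2). *Tcf7* was at −0.60 on the log2 scale (95% interval −0.93 to −0.27, adjusted p = 0.0689), *Bcl11b* at −0.56 (−0.90 to −0.21, adjusted p = 0.0872) and *Il2rb* at −0.38 (−0.68 to −0.08, adjusted p = 0.135). *Cd3g*, *Tcf7*, *Bcl11b* and *Il2rb* were lower in all BMAd-Pnpla2-/- CR than in all BMAd-Pnpla2+/+ CR samples, beside 8.06% of all genes. For *Cd3g* this rested on the TMM scaling. As CPM of the unscaled library total, its highest BMAd-Pnpla2-/- CR sample (11.14) lay above its lowest BMAd-Pnpla2+/+ CR sample (11.08). The log2 differences were −0.15 for *Cd8a* (95% interval −0.65 to 0.35), −0.20 for *Cd8b1* (−0.72 to 0.32) and −0.04 for *Cd3e* (−0.40 to 0.33). The intervals of both CD8 chains hold no difference and also the −0.60 of *Tcf7*.

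The difference between the responses of the genotypes was tested as an interaction, in which no gene of all tested passed (0%, with 1836 at an unadjusted p under 0.05 and 45 calls by DESeq2). For *Tcf7* the response to CR was lower in BMAd-Pnpla2-/- mice by −0.94 on the log2 scale (95% interval −1.40 to −0.47, unadjusted p = 0.000696, adjusted p = 0.341), for *Bcl11b* by −0.75 (−1.24 to −0.25, adjusted p = 0.345), for *Il2rb* by −0.72 (−1.14 to −0.30, adjusted p = 0.341) and for *Cd3g* by −0.54 (−1.06 to −0.01, adjusted p = 0.468). DESeq2 called *Tcf7* in the interaction. The intervals of *Cd8b1* (−0.50, −1.25 to 0.25), *Cd8a* (−0.34, −1.05 to 0.37) and *Nkg7* (0.01, −0.42 to 0.43) included 0. *Tcf7* against *Cd3e* gave a log2 ratio of 2.24 ± 0.033 (SD, n = 3) in BMAd-Pnpla2-/- CR and 2.81 ± 0.060 (n = 4) in BMAd-Pnpla2+/+ CR samples, without overlap (exact permutation p = 0.0571, the smallest that 4 against 3 samples allow, adjusted p = 0.229).

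Of 139 other genes in 10 lists of T and NK cell biology, 134 were tested. Under CR 26 rose (19.4%) and 11 fell (8.21%) in BMAd-Pnpla2+/+ mice, beside 15.1% and 10.9% of all genes. When only the compared groups were fitted, 20 rose and 7 fell, beside 1794 and 948 of all 16699 genes tested. In BMAd-Pnpla2-/- mice 7 rose (5.22%) and 15 fell (11.2%), beside 6.04% and 5.57% of all genes. Scaled by total counts, 9 rose and 11 fell, beside 1396 and 687 of all 17671 genes tested. With only the compared groups fitted, 8 rose and 25 fell, beside 1126 and 1546 of 16576. By DESeq2, 11 rose and 22 fell, beside 1363 and 1709 of 17680. The shares of genes that rose in BMAd-Pnpla2-/- mice and fell in BMAd-Pnpla2+/+ mice were thus near those of all genes, and the counts of each list below stand beside the same 4 background shares. In edgeR's fit none of these genes was called for genotype at either diet or for the interaction. For genotype under CR, DESeq2 called 1 higher and 11 lower, beside 623 and 942 of all 12497 genes tested. The deposited matrix gave 4 lower, beside 1261 of 17509. Without BMAd-Pnpla2+/+ CR replicate 4, edgeR called 3 higher and 4 lower, beside 1156 and 956 of 17618. Without BMAd-Pnpla2+/+ CR replicate 3, edgeR called 1 lower, beside 139 of 17536. The interaction gave 2 lower with the matrix, beside 467 of 17509. The counts in BMAd-Pnpla2-/- mice depended on single samples: without CR replicate 3 they were 1 and 3, without AL replicate 3 1 and 8, without AL replicate 1 2 and 6, without CR replicate 2 3 and 8, and without CR replicate 1 6 and 10. Calls among all genes depended on single samples too, with 121 higher and 122 lower of 18138 without CR replicate 3. In BMAd-Pnpla2+/+ mice the number that fell went to 5 without CR replicate 3 and 7 without CR replicate 2. Among all genes 780 of 17536 and 1073 of 17568 then fell. The number of list genes that rose stayed between 19 and 30. Of the calls named below, those of *Zap70*, *Lcp2*, *Cd5*, *Cd40lg*, *Cd226*, *Zbtb7b*, *Id2*, *Klrd1*, *Klra1*, *Cxcr3*, *Cd44*, *Il9r*, *Dll1* and *Spi1* in BMAd-Pnpla2+/+ mice, and all those in BMAd-Pnpla2-/- mice except *Bcl2*, *Rag1*, *Rag2* and *Dntt*, no longer passed when 1 sample or another was left out.

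**Figure D4:**
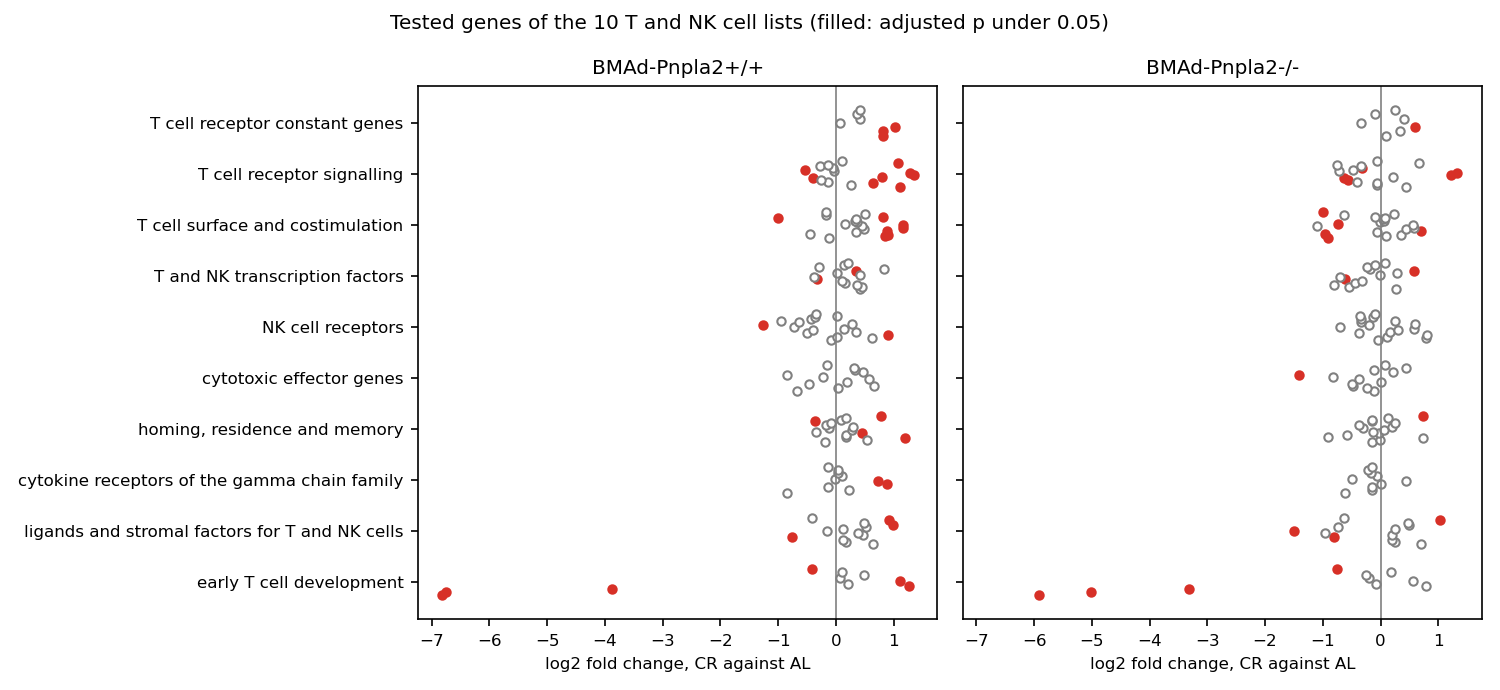
log2 fold change of CR against AL (x axis) for each tested gene (points) of the 10 lists (y axis) in BMAd-Pnpla2+/+ (left) and BMAd-Pnpla2-/- mice (right); filled points have an adjusted p under 0.05. The T cell receptor constant genes lie to the right of 0 in BMAd-Pnpla2+/+ mice, and the early T cell development list holds the genes furthest to the left in both.

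Among the 7 constant genes of the T cell receptor, which do not depend on which V segment a clone uses, 3 rose and 0 fell in BMAd-Pnpla2+/+ mice (median log2 fold change 0.42, beside 0.00 for all genes), and 1 rose in BMAd-Pnpla2-/- mice (median 0.26, beside 0.05). *Trbc2*, a constant gene of the beta chain, stood at 8.40, 7.60, 6.64 and 8.39 CPM in BMAd-Pnpla2+/+ AL and 17.7, 15.1, 14 and 16.3 CPM in CR samples. For *Trbc2* the BMAd-Pnpla2-/- samples stood at 9.95, 10.7 and 7.25 CPM under AL and 12.3, 15 and 15.1 CPM under CR. It rose in both, by 1.02 (SE 0.14, adjusted p = 0.00117) and 0.60 (adjusted p = 0.0335) on the log2 scale. *Trac*, the constant gene of the alpha chain, and *Trbc1* rose by 0.82 each in BMAd-Pnpla2+/+ mice (adjusted p = 0.00385 and 0.00222) and gave 0.10 and 0.34 in BMAd-Pnpla2-/- mice (adjusted p = 0.743 and 0.157). *Tcrg-C1*, of the gamma chain, gave 0.41 in BMAd-Pnpla2+/+ mice (adjusted p = 0.466).

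Of 16 genes of T cell receptor signalling, 6 rose and 2 fell in BMAd-Pnpla2+/+ and 2 rose and 3 fell in BMAd-Pnpla2-/- mice. *Themis*, an adaptor of thymocyte selection, rose by 1.35 and 1.22 on the log2 scale and *Trat1*, an adaptor of the receptor complex, by 1.28 and 1.32 in BMAd-Pnpla2+/+ and BMAd-Pnpla2-/- mice (adjusted p between 0.00264 and 0.0175). *Txk*, a kinase of the Tec family, rose by 1.07 in BMAd-Pnpla2+/+ mice (adjusted p = 0.00278) and gave 0.67 in BMAd-Pnpla2-/- mice (adjusted p = 0.0518). *Cd247*, the zeta chain that completes the CD3 complex, rose by 1.11 in BMAd-Pnpla2+/+ mice (adjusted p = 0.00217), as did *Zap70*, the kinase that binds it, by 0.64 (adjusted p = 0.0249). Those that fell were *Ubash3a*, which dampens receptor signals, and *Lcp2* in BMAd-Pnpla2+/+ mice (−0.53 and −0.40) and *Lcp2*, *Fyb* and *Fyn* in BMAd-Pnpla2-/- mice (−0.64, −0.56 and −0.32), of which the adaptors *Lcp2* and *Fyb* also serve myeloid cells and platelets. Of 19 surface and costimulation genes, 6 rose and 1 fell in the first and 1 rose and 4 fell in the second. *Cd28*, the costimulatory receptor, rose in both by 0.88 and 0.69 (adjusted p = 0.00312 and 0.0259), while *Cd6* (0.89, adjusted p = 0.00197) and *Ctla4*, the inhibitory counterpart of CD28 (1.16, adjusted p = 0.00522), rose in BMAd-Pnpla2+/+ mice. The others that rose there were *Thy1* (0.81), *Cd5* (0.85) and *Cd40lg*, the ligand by which helper T cells stimulate B cells (1.17, adjusted p = 0.0355), and *Cd226*, an activating receptor of T and NK cells, fell by 1.01 (adjusted p = 0.0228). In the other genotype *Lag3*, *Cd2* and *Tnfrsf4* fell by 1.0, 0.92 and 0.73 (adjusted p = 0.0127, 0.0331 and 0.0379). *Cd7*, which T and NK cells share, fell by 0.96 in BMAd-Pnpla2-/- mice (adjusted p = 0.0165) and gave −0.44 in BMAd-Pnpla2+/+ mice (adjusted p = 0.0882). *Lag3* and *Cd7* are also known from plasmacytoid dendritic cells. Of 6 markers of those cells 2 fell and none rose in each genotype, beside 10.9% (BMAd-Pnpla2+/+) and 5.57% (BMAd-Pnpla2-/-) of all genes lower. The part of such cells in the values of *Lag3* and *Cd7* was not tested.

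Of 14 transcription factors other than the members, 1 rose and 1 fell in each genotype. *Id2*, which innate lymphoid and NK cells need, rose by 0.35 and 0.57 on the log2 scale in BMAd-Pnpla2+/+ and BMAd-Pnpla2-/- mice (adjusted p = 0.0422 and 0.0199). *Zbtb7b*, which directs the CD4 lineage, fell by 0.33 and 0.62 (adjusted p = 0.042 and 0.0124).

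NK cell receptors gave few calls. Of 17, 1 rose and 1 fell in BMAd-Pnpla2+/+ and none passed in BMAd-Pnpla2-/- mice, with medians of −0.35 and −0.05. *Klrd1*, which encodes CD94 of NK and CD8 T cells, stood at 4.01, 9.28, 8.91 and 7.63 CPM in BMAd-Pnpla2+/+ AL and 8.72, 14.1, 19.9 and 13 CPM in CR samples, which overlapped, and rose by 0.90 (adjusted p = 0.0235). *Klra1*, a Ly49 receptor of a family of near copies whose reads may be split between genes, fell by 1.26 (adjusted p = 0.0429). Of 12 tested cytotoxic effector genes (*Ifng* was too low), none passed in control mice, while *Xcl1*, a chemokine of NK and CD8 T cells, fell by 1.40 in BMAd-Pnpla2-/- mice (adjusted p = 0.0488). Summed over the list, the cytotoxic genes stood at 318 to 336 CPM in BMAd-Pnpla2+/+ AL and 294 to 348 CPM in CR samples.

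Of 16 genes of homing, residence and memory, 3 rose and 1 fell in BMAd-Pnpla2+/+ mice and 1 rose in BMAd-Pnpla2-/- mice. *Bcl2*, a survival gene, rose in both by 0.78 (adjusted p = 0.00103) and 0.73 (adjusted p = 0.00818) on the log2 scale. *S1pr1*, the receptor by which lymphocytes leave tissues toward blood, rose by 1.20 in BMAd-Pnpla2+/+ mice (adjusted p = 0.00401) and gave 0.73 in BMAd-Pnpla2-/- mice (adjusted p = 0.0753). *Cxcr3*, a homing receptor of effector and memory T cells, rose by 0.45 in BMAd-Pnpla2+/+ mice (adjusted p = 0.0235). *Cd44*, an adhesion molecule of most leukocytes, fell there by 0.37 (adjusted p = 0.031). Of 10 other cytokine receptor genes of the gamma chain family, 2 rose in BMAd-Pnpla2+/+ mice, *Il15ra* (0.72, adjusted p = 0.00356), which presents IL-15 to cells with CD122, and *Il9r* (0.88, adjusted p = 0.0316), and none passed in BMAd-Pnpla2-/- mice.

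Of the 13 tested ligands and stromal factors (*Il2*, *Ccl21a* and *Tnfsf4* were too low), 2 rose and 1 fell in BMAd-Pnpla2+/+ and 1 rose and 2 fell in BMAd-Pnpla2-/- mice. *Kitl*, stem cell factor of marrow stroma, rose by 0.92 and 1.03 (adjusted p = 0.00861 and 0.0186), and *Il12a*, a subunit of IL-12, fell by 0.77 and 0.81 (adjusted p = 0.00554 and 0.0167). *Cxcl10*, a ligand of CXCR3, fell by 1.5 in BMAd-Pnpla2-/- mice (adjusted p = 0.0373). *Dll1*, a Notch ligand, rose by 0.99 in BMAd-Pnpla2+/+ mice (adjusted p = 0.0212). *Il7*, the survival cytokine of lymphocytes, gave 0.65 and 0.69 (adjusted p = 0.056 and 0.109).

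Of 10 tested genes of early T cell development (*Ptcra*, the pre-T cell receptor chain, was too low), 2 rose and 4 fell in BMAd-Pnpla2+/+ and 4 fell in BMAd-Pnpla2-/- mice. The risers were *Notch3*, a receptor of Notch signals (1.10, adjusted p = 0.0132), and *Cd1d1*, which presents lipids to NKT cells and is found on many cell types (1.27, adjusted p = 0.00441). Those that fell were *Rag1*, *Rag2* and *Dntt*, which recombine and edit receptor genes in B cell progenitors as well as in early T cells, and *Spi1* (−0.42 and −0.75, adjusted p = 0.0376 and 0.014), a factor of myeloid and early progenitors. *Rag1* stood at 72.1, 22.2, 30.5 and 87.5 CPM in BMAd-Pnpla2+/+ AL and 0.426, 0.912, 0.133 and 0.369 CPM in CR samples. For *Rag1* the BMAd-Pnpla2-/- samples stood at 52.5, 41.8 and 41.0 CPM under AL and 0.896, 1.21 and 0.147 CPM under CR. *Rag2* stood at 2.27 to 7.20 CPM in BMAd-Pnpla2+/+ AL samples and was left with 0, 2, 1 and 0 counts in the CR samples. *Dntt* fell by 3.88 and 3.32 on the log2 scale. *Rag1* and *Dntt* were thus lower in every CR sample, while *Cd3e*, which mature T cells carry, was higher in every one.

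Marker lists of other cell types moved with diet beside the T cell genes. All 6 adipocyte markers rose in both genotypes, their sum from 362 to 783 CPM in BMAd-Pnpla2+/+ AL to 1089 to 2559 CPM in CR samples and from 217 to 458 CPM to 744 to 1204 CPM in BMAd-Pnpla2-/- mice. Of 8 neutrophil markers 7 fell in BMAd-Pnpla2+/+ mice, their sum from 16948 to 22671 CPM under AL to 7577 to 13234 CPM under CR, and none passed in BMAd-Pnpla2-/- mice, where the sum went from 15926 to 17740 to 10357 to 16659 CPM. None of 9 B cell markers passed in either genotype. Of the 3 innate lymphoid cell markers tested (*Il22*, *Il5* and *Il13* were too low, and *Il22* was at 0 in all samples of 3 groups), *Rora* rose in each genotype, by 1.39 and 1.24, and the sum of all 6 stood at 26.7 to 40.9 and 43.3 to 56.1 CPM in BMAd-Pnpla2+/+ and 32.0 to 37.8 and 45.5 to 60.3 CPM in BMAd-Pnpla2-/- mice under AL and CR. Of 6 osteoblast markers 3 rose in control mice and 1 in BMAd-Pnpla2-/- mice, their sum from 528 to 1261 CPM to 932 to 3685 CPM in the first and from 609 to 1280 CPM to 1531 to 1753 CPM in the second. Of 6 markers of stroma and endothelium 3 rose in BMAd-Pnpla2+/+ mice (sum 4282 to 5386 CPM under AL and 5003 to 9119 CPM under CR) and none passed in BMAd-Pnpla2-/- mice. None of the 4 skeletal muscle markers tested passed, but the sum of that list stood at 34.2 and 108 CPM in BMAd-Pnpla2-/- CR replicates 2 and 3, against 2.27 to 18.7 CPM in the other samples. The calls of *Cd8a*, *Cd8b1*, *Cd3e* and *Nkg7* in BMAd-Pnpla2-/- mice were lost without either of these replicates, as given above. They were likewise lost without AL replicate 1 or 3 of that genotype, whose muscle sums were 5.17 and 5.45 CPM. Whether these changes of composition have a part in the values of the T cell genes was not tested.

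Lymphoid stroma markers were checked because plugs may hold lymphoid tissue. Of the 5 tested, 2 rose in control mice and 1 in BMAd-Pnpla2-/- mice, and the sum of the list stood at 6.21 to 7.68 CPM in BMAd-Pnpla2+/+ AL, 14 to 46.5 in BMAd-Pnpla2+/+ CR, 5.71 to 10.3 in BMAd-Pnpla2-/- AL and 7.07 to 16.6 in BMAd-Pnpla2-/- CR samples. *Madcam1*, an addressin to which lymphocytes bind, stood at 0.145, 0.264, 0.978 and 0.237 CPM in BMAd-Pnpla2+/+ AL and 10.7, 13.8, 11.2 and 6.86 CPM in CR samples, a rise of 4.71 on the log2 scale (SE 0.54, adjusted p = 0.000532). In BMAd-Pnpla2-/- mice it stood at 0.979, 2.11 and 0.952 CPM under AL and 1.16, 4.42 and 3.04 CPM under CR (log2 fold change 1.09, adjusted p = 0.21). *Cxcl13*, a chemokine of B cell follicles, rose by 5.47 and 3.87 (adjusted p = 0.00258 and 0.0339). Of the same list, *Glycam1* was at 0 in every sample, and *Ccl21a* in every one outside the BMAd-Pnpla2-/- CR group. The part of such tissue in the T cell values was not tested.

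By Pearson correlation over the 14 samples with the mean z-score of the members, the genes most alike among 13042 candidates were *Gm2682* (r = 0.954), *Fam168a* (0.940), *Skap1* (0.936), *Gimap3* (0.935), *Trbc2* (0.930), *Rhbdd2* (0.925), *Trbc1* (0.923), *Nsg2* (0.919), *Slc25a35* (0.916) and *Trac* (0.913). *Skap1* is an adaptor of T cell adhesion and *Gimap3* a GTPase of lymphocytes, and 3 of the 10 are constant genes of the T cell receptor. The samples share diet groups and library types, so these values are a description of likeness over the groups.

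Counting changed the values of *Cd3e* among the members. Of its exon bases 135 (3.31%) are shared with the antisense gene *Gm48719*, and a read pair that overlaps both cannot be given to either when strand is ignored. In the 11 stranded libraries, counts of *Cd3e* on its own strand were 153% of those without strand, against 98.9% to 99.6% for the other members. Whether the shared bases hold the read pairs that make up this difference was not tested. The deposited matrix holds own-strand counts for these 11 samples and counts without strand for the 3 BMAd-Pnpla2-/- CR samples, so that *Cd3e* in it stood at 6.54 ± 1.91, 15.8 ± 2.16, 8.55 ± 1.04 and 10.2 ± 1.04 CPM of the unscaled library total (SD, n = 4, 4, 3 and 3) in the BMAd-Pnpla2+/+ AL and CR and BMAd-Pnpla2-/- AL and CR samples. Counted in one way for all, the same groups stood at 4.53 ± 0.84, 10.3 ± 1.42, 5.45 ± 0.62 and 10.1 ± 1.02. With the matrix the rise of *Cd3e* under CR in BMAd-Pnpla2-/- mice was 0.13 on the log2 scale (adjusted p = 0.696) in place of 0.81, and its difference between genotypes under CR passed the test at −0.65 (adjusted p = 0.045) in place of −0.04.

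**Figure D5:**
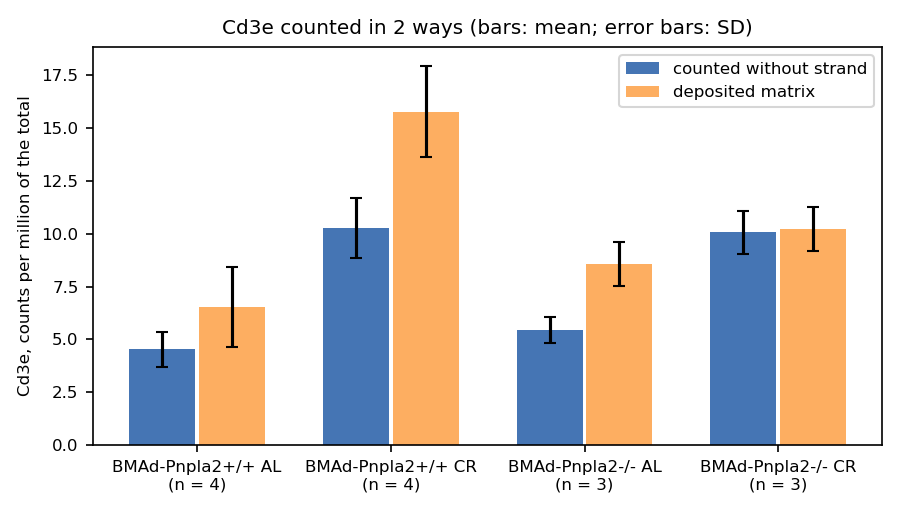
Mean Cd3e level (y axis, CPM of the unscaled library total, starting at 0) with SD in the 4 groups (x axis), counted without strand (blue) and as in the deposited matrix (orange). The matrix is higher in the 3 groups with stranded libraries and about equal in BMAd-Pnpla2-/- CR (10.1 and 10.2).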

How the data were processed

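Bone marrow plugs of distal tibiae were sequenced as paired reads of 100 bases on a DNBSEQ instrument. The study describes the mRNA libraries as strand-specific, but the 3 BMAd-Pnpla2-/- CR libraries did not keep the strand, as given above. Per the submitters' processing notes, the authors checked reads with FastQC (0.11.9) and aligned them to mm10 with STAR. The STAR version and the annotation are not given in the sources used here. The deposited per-sample files hold raw counts per gene for 55401 genes under 3 strand settings (without strand, first and second strand), and the deposited matrix repeats counts of 23441 genes, on the second strand for 11 samples and without strand for the 3 BMAd-Pnpla2-/- CR samples. Rows that name no gene (21.1% to 25.6% of pairs without strand) stayed out of all totals. Counts without strand were used for all samples, with 18898324 to 21665553 gene counts per sample.

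From these counts, the 14 samples were fitted in one model of 4 groups with edgeR (4.0.16, R 4.3.3): filterByExpr, TMM scaling and the robust quasi-likelihood test. P-values were adjusted by Benjamini-Hochberg over the 17671 genes tested, and a call is an adjusted p under 0.05. All unlabelled log2 fold changes, standard errors (SE) and adjusted p-values come from this fit. Ratios of counts were compared by exact two-sided permutation tests (SciPy 1.17.1), adjusted over 28 tests. Each sample pools 2 mice, and p-values measure the spread between pools. RPKM used the union of exons per gene.

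The members and lists were chosen with earlier results of these data known, and 3 list genes were left out of lists and counts and are not reported here. Named besides the 10 members were up to 4 tested genes of each list with the smallest p for CR against AL averaged over genotypes, the 10 genes most alike the members (mean count 50 or above) and *Pnpla2*; other genes (*Ctla4*, *Klra1*, *Il9r*, *Dll1*, *Trac* and markers among them) were named after their values were seen, as were the promoter motifs chosen. Alternatives were the deposited matrix, second-strand counts of 11 samples, DESeq2 size factors, total counts, no filter, DESeq2 (1.42.0), a fit that was not robust, the compared groups only, a replicate block and each sample left out.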

Additional observations from a re-analysis of the deposited data

Results flagged for a closer look

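In groups of 4 samples, single samples that stood far from the others were looked for among 170 pairs of gene and group; chance marks about 1 in 20 such groups. None of the 20 pairs of the 10 T and NK cell genes had such a sample. In BMAd-Pnpla2+/+ AL mice they were replicate 4 for *Trbc1* (10.5 CPM), replicate 1 for *Cd247* (6.37 CPM) and *Lag3* (8.45 CPM), replicate 1 for *Plin1*, the lipid droplet protein of adipocytes (189 CPM), and replicate 3 for *Madcam1* (0.978 CPM). In BMAd-Pnpla2+/+ CR mice replicate 3 stood apart for *Il2ra*, the alpha chain of the IL-2 receptor (7.56 CPM), *Stat5b*, a signal transducer of IL-2 and IL-15 (139 CPM), and *Spi1* (264 CPM). These are 8 pairs in all.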

How the results depend on the processing

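Under alternatives that kept all 14 samples, the 8 calls among the 10 genes for CR in BMAd-Pnpla2+/+ mice did not change (second-strand counts of 11 samples allow only this comparison and genotype in mice fed AL). Of all tested genes, fitting only the compared groups gave 2742 calls for CR in BMAd-Pnpla2+/+ and 0 for genotype under CR, and the deposited matrix gave 3898 for CR in BMAd-Pnpla2-/- mice, 2451 for genotype under CR and 678 for the interaction. For genotype under CR, total counts gave 8, no filter 111 and DESeq2 1565, and DESeq2 gave 17 for genotype in mice fed AL and 45 for the interaction. Of the 10 genes, genotype under CR gave 3 calls with the matrix (*Cd3e*, *Tcf7* and *Bcl11b*), 2 with DESeq2 (*Tcf7* and *Bcl11b*) and 1 without the filter (*Tcf7*), and the interaction gave 1 (*Tcf7*) with the matrix or DESeq2; apart from *Cd3e*, whose counts the matrix mixes, the cause was not tested.

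With 1 sample left out, calls among all genes ranged from 2228 to 6029 for CR in BMAd-Pnpla2+/+ mice, 243 to 2435 for CR in BMAd-Pnpla2-/- mice (lowest without BMAd-Pnpla2-/- CR replicate 3) and 0 to 2112 for genotype under CR (highest without BMAd-Pnpla2+/+ CR replicate 4); among the 10 genes they ranged from 0 to 6 for CR in BMAd-Pnpla2-/- mice and 0 to 2 (*Tcf7* and *Nkg7*) for genotype under CR. Groups share replicate numbers. Deviations from group means correlated alike in same-numbered pairs (19 pairs, r from −0.376 to 0.326) and in other pairs (54 pairs, −0.440 to 0.362). This gave no sign of pairing by number, but with so few samples it cannot exclude pairing. With a replicate block, calls were 4253 and 1831 for CR in the 2 genotypes, 0 and 2 for genotype and 0 for the interaction. *Tcf7* then passed for CR in BMAd-Pnpla2-/- mice (adjusted p = 0.0389). Of 11195 values of single genes under all alternatives 10708 kept their call, 366 lost it and 121 gained it, and no call changed sign. No ratio could pass after adjustment over 28 tests in this design, so the ratio tests decide nothing and the ratios stand as a description. Counts near 59 in the lowest samples and 3 or 4 samples a group limit what could be seen.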
